A study of Mus musculus with 9 samples.

Results

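The accessory subunits of the SIN3 histone deacetylase complex were described here at the transcript level, as 10 genes: Sap130, Sap18, Brms1, Brms1l, Rbbp4, Rbbp7, Arid4a, Arid4b, Phf12 and Morf4l1. They were chosen by name and matched by symbol to the Ensembl gene IDs of the count tables. All 10 were found among the 37990 genes listed, and all 10 passed the filter on low counts, which left 14465 genes to test. The cells were E14, a line of mouse embryonic stem cells grown in serum with leukaemia inhibitory factor, and each library came from total RNA. The Fam60a knockdown and the Sin3a knockdown carried a stable lentiviral short hairpin RNA (pLKO.1) against the named gene, and the T2SC control carried a scrambled hairpin, with 3 libraries in each of the 3 groups. All 3 groups had therefore been transduced, selected with puromycin and passaged before harvest. The headers of the count tables put another number after the name Fam60a than the titles do, the labels explain neither number, and which hairpin these libraries carry is therefore uncertain. The titles do not spell out T2SC, and these libraries were taken as the scrambled controls because their titles name neither target. The labels speak of biological replicates of the knockdowns but do not say whether each was a transduction of its own.

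SIN3 is a corepressor: the scaffold Sin3a or Sin3b has no deacetylase activity itself, carries the deacetylases Hdac1 and Hdac2, and is brought to DNA by transcription factors. The accessory subunits are the parts that hold the enzymes in place, bind histones or choose the chromatin the complex sits on. Several of them serve other machines as well, since Rbbp4 and Rbbp7 are also subunits of NuRD, PRC2 and the chromatin assembly factor CAF-1, Morf4l1 is also part of the NuA4/TIP60 acetyltransferase, and Sap18 is also part of the splicing-linked ASAP complex. Fam60a, named Sinhcaf in the annotation, is a SIN3 subunit linked to the self-renewal of embryonic stem cells. The design asks what transcripts do when the scaffold or this subunit is lowered.

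None of the 10 accessory subunits passed edgeR's test for a change in any of the 3 comparisons when all 9 libraries were used. Of all genes, 2.92% were called in the Fam60a knockdown, 10.2% in the Sin3a knockdown and 3.06% between the knockdowns. The levels of most lay within a narrow band in all groups, and the fold change furthest from 1 against the controls was that of Brms1 in the Sin3a knockdown, at 1.46 with a 95% interval of 0.98 to 2.17. Several calls turned on a single library, the Sin3a knockdown replicate 3. Without it, Arid4a, Arid4b and Sap130 were higher and Phf12 was lower in the Sin3a knockdown than in the controls, by 1.17 to 1.31 times upward and to 0.776 of the control level for Phf12. In that fit 24.5% of all genes were called in the Sin3a knockdown, and these calls were not read as particular to the accessory subunits.

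The libraries held 5511453 to 7674887 counted reads in 8 cases and 2607872 in the Sin3a knockdown replicate 3. That library stood apart in other ways too, with 90 mitochondrial reads against 6268 to 7118 in the other 8, so the calls on the accessory subunits and on the lists of related genes are given with and without it. The targeted genes went with the labels. Sinhcaf had 5.59, 6.54 and 5.06 CPM, reads scaled to library size with TMM factors, in the Fam60a knockdown, 13.9, 14.3 and 18.7 CPM in the Sin3a knockdown and 13.4, 14.0 and 13.1 CPM in the controls. Sin3a had 227, 216 and 207 CPM in the Fam60a knockdown, 131, 136 and 110.4 CPM in the Sin3a knockdown and 311, 281 and 268 CPM in the controls. Sinhcaf fell to 42.6% of the control level in the Fam60a knockdown (adjusted p = 0.028) and Sin3a fell to 43.9% in the Sin3a knockdown (adjusted p = 0.00149). Here and below an adjusted p comes from edgeR's quasi-likelihood test with Benjamini-Hochberg adjustment over all tested genes, unless another tool is named, and the threshold was 0.05. The call on Sinhcaf was lost without any 1 of 8 libraries, all but the Sin3a knockdown replicate 3, with an adjusted p of 0.051 to 0.133 and a log2 fold change of -1.34 to -1.15. The call on Sin3a in the Sin3a knockdown was kept without each library in turn. Sin3a also lay below every control in every Fam60a knockdown library, where groups did not overlap for 34.4% of all genes. It was not called there with all 9 libraries. Without the Sin3a knockdown replicate 3 it was called lower in the Fam60a knockdown, in a fit that called 16.9% of all genes.

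All 10 markers of embryonic stem cells looked up, Pou5f1 and Nanog among them, were above 10 CPM in all 9 libraries, and they summed to 1765 to 1971 CPM in the Fam60a knockdown, 1662 to 2066 CPM in the Sin3a knockdown and 1905 to 2152 CPM in the controls. Sums of markers of other cell types varied between libraries. The 10 primitive endoderm markers summed to 2963 to 4219 CPM in the Fam60a knockdown, 3422 to 7569.5 CPM in the Sin3a knockdown and 1569.9 to 3346 CPM in the controls, and the highest of these sums was in the Sin3a knockdown replicate 3. The Fam60a knockdown overlapped the controls in this sum. Of the 10, edgeR called 0 with Fam60a knocked down and 1 with Sin3a knocked down, Gata6. This gene had 195, 171 and 211 CPM in the Fam60a knockdown, 208, 195 and 221 CPM in the Sin3a knockdown and 57.0, 61.0 and 137 CPM in the controls. Control replicate 3 thus stood above control replicates 1 and 2. Without the Sin3a knockdown replicate 3, Gata6 alone of the 10 was called, higher in both knockdowns. The 10 fibroblast markers summed to 354 to 437, 352 to 403 and 117 to 282 CPM in the same order of groups, with 1 marker at 0 in all Fam60a knockdown libraries, 3 at 0 in all Sin3a knockdown libraries and 0 markers at 0 in all controls. Most of that sum was Pdgfra, which primitive endoderm expresses as well, with 313 to 396, 327 to 346 and 68.3 to 229 CPM in the 3 groups. Dcn and Lum had 4 reads each over all 9 libraries. The collagen gene Col1a1 averaged 2.10, 4.29 and 14.3 CPM, with 7.82, 28.9 and 6.26 CPM in the controls and 0.76, 0.74 and 11.4 CPM in the Sin3a knockdown. Col1a2 averaged 1.26, 16.4 and 5.12 CPM, with 35.3 CPM in the Sin3a knockdown replicate 3. The median log2 fold change of the 6 fibroblast markers tested was -0.997 with Fam60a knocked down and -0.337 with Sin3a knocked down. Of these 6, edgeR called 0 with Fam60a knocked down and 1 lower with Sin3a knocked down, Thy1, which averaged 25.1, 6.87 and 24.7 CPM. Without the Sin3a knockdown replicate 3 it called 2 lower in each knockdown. The 8 trophectoderm markers summed to 142 to 220.2, 104 to 386 and 94.7 to 185 CPM, and the 5 neuroectoderm markers found summed to 100.1 to 112, 73.4 to 149.9 and 194 to 218 CPM, with 0 markers of either list at 0 throughout a group. The trophectoderm sums of the groups overlapped, and 0 of the trophectoderm markers were called with all 9 libraries. Without the Sin3a knockdown replicate 3, edgeR called 2 of them higher with Fam60a knocked down. The neuroectoderm sums of both knockdowns lay below those of all controls. Of these 5 markers, edgeR called Elavl3 and Tubb3 lower with Fam60a knocked down, using all 9 libraries. With Sin3a knocked down it called Elavl3, Pax6 and Tubb3 lower. Leaving out the Sin3a knockdown replicate 3 gave 3 and 5 lower, in that order. Nes did not follow the sum, with a mean of 27.6 CPM in the Fam60a knockdown against 21.7 CPM in the controls. It had 13.9, 13.7 and 113 CPM in the Sin3a knockdown. Without replicate 3 the Sin3a knockdown sums were 3422 to 3453 CPM for primitive endoderm, 352 to 373 CPM for fibroblasts, 104 to 117 CPM for trophectoderm and 73.4 to 79.4 CPM for neuroectoderm. The part of these sums in the results on the accessory subunits was not tested. In bulk RNA, fewer cells of a type and less RNA per cell cannot be told apart.

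On GRCm38, with the GENCODE M21 annotation matched by gene ID, the accessory subunits lie on 9 chromosomes and all are protein-coding genes. Only Brms1l (chr12:55836324-55869736) and Arid4a (chr12:71015990-71098592) share one. Sap18 is at chr14:57798180-57806638, Brms1 at chr19:5041354-5049917, Arid4b at chr13:14063232-14199603, Phf12 at chr11:77982754-78030539 and Rbbp7 at chrX:162760402-162779092, all on the plus strand. Rbbp4 (chr4:129307100-129335370) and Morf4l1 (chr9:90091665-90114774) are on the minus strand.

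Promoters were looked up in RefSeq on GRCm38.p6, where 7 of the 10 genes were matched to an entry and Arid4a and Brms1 were not. Sap130 could not be matched, because the promoters of its chromosome were left out before the matching. In the 250 bases before the start site, CpG dinucleotides numbered 8 to 41 with a median of 23, against a median of 10 over the 21263 protein-coding promoters used for comparison. The letters CCAAT, on either strand, were found in 5 of the 7, which is 71.4%, against 35.4% of those promoters. One of the 5 is Arid4b, whose window, chr13:14063534-14063783, lies inside the span of the gene in GENCODE M21. The promoters used for comparison were not limited to genes expressed in these cells. The letters CACGTG, which read the same on both strands and do not overlap CCAAT, were found in 1 of the 7, which is 14.3%, against 6.63%. The promoters of Rbbp4 and Rbbp7 are printed because the genes are the closest pair of paralogues among the 10 and were among the highest per length. Each run is the 250 bases before the start site, 5′ to 3′ on the gene's own strand, with CCAAT on either strand (as ATTGG) and CACGTG in capitals.
Rbbp4, chr4:129335371-129335620, minus strand: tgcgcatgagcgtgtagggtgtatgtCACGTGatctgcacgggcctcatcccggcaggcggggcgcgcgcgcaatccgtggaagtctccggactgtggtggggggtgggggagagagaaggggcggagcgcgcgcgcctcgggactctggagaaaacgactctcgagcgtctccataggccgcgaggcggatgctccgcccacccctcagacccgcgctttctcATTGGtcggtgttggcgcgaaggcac
Rbbp7, chrX:162760122-162760371, plus strand: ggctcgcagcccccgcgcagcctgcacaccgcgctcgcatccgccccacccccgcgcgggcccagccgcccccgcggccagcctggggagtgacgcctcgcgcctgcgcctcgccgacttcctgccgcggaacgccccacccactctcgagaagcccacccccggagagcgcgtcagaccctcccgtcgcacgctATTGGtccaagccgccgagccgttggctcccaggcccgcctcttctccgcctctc
Both hold 1 match to CCAAT, which begins 26 bases before the start site in Rbbp4 and 55 bases before it in Rbbp7, and of these 2 promoters Rbbp4 alone holds CACGTG. These matches are letters in a window and say nothing about a factor's binding.

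Levels differed more between the accessory subunits than between the groups. Per kilobase of the principal transcript, the control level was highest for Rbbp7, at 61.1 ± 5.03 CPM per kilobase (SD, n = 3). Brms1 followed at 51.6 ± 2.58, Sap130 at 48.2 ± 1.28, Rbbp4 at 47.0 ± 3.14 and Phf12 at 44.7 ± 2.73 CPM per kilobase. The ranges over the 3 control libraries of neighbours from Brms1 to Phf12 overlapped, and that of Rbbp7, 55.3 to 64.8, lay above the 49.0 to 54.1 of Brms1. A middle group held Brms1l at 24.5 ± 1.12, Arid4b at 18.1 ± 1.01 and Arid4a at 17.8 ± 1.95 CPM per kilobase, of which the ranges of the ARID4 pair overlapped. Morf4l1 at 7.31 ± 0.461 and Sap18 at 3.92 ± 0.418 CPM per kilobase were the lowest, and the counts of both share sequence with other genes. Of the 50-base words of the principal Morf4l1 transcript, 46.9% also occur in another gene, mostly processed pseudogenes, and reads of such words can be dropped or split when counted. The same share was 15.6% for Sap18, of which 14.4% is shared with the paralogue Sap18b, and 9.38% for Rbbp7, shared with the pseudogene Gm6382. It was 99.6% for Brms1, whose exons are also part of an overlapping readthrough gene on the same strand in this annotation, AC124502.3. The ID of that gene is not among those counted, and whether another ID covered it is not known. The share was 0 for Sap130, Arid4a, Arid4b and Phf12. The levels of Morf4l1, Sap18, Rbbp7 and Brms1 are therefore uncertain, and how multiply mapped reads were handled is not given in the sources used here.

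**Figure D1:**
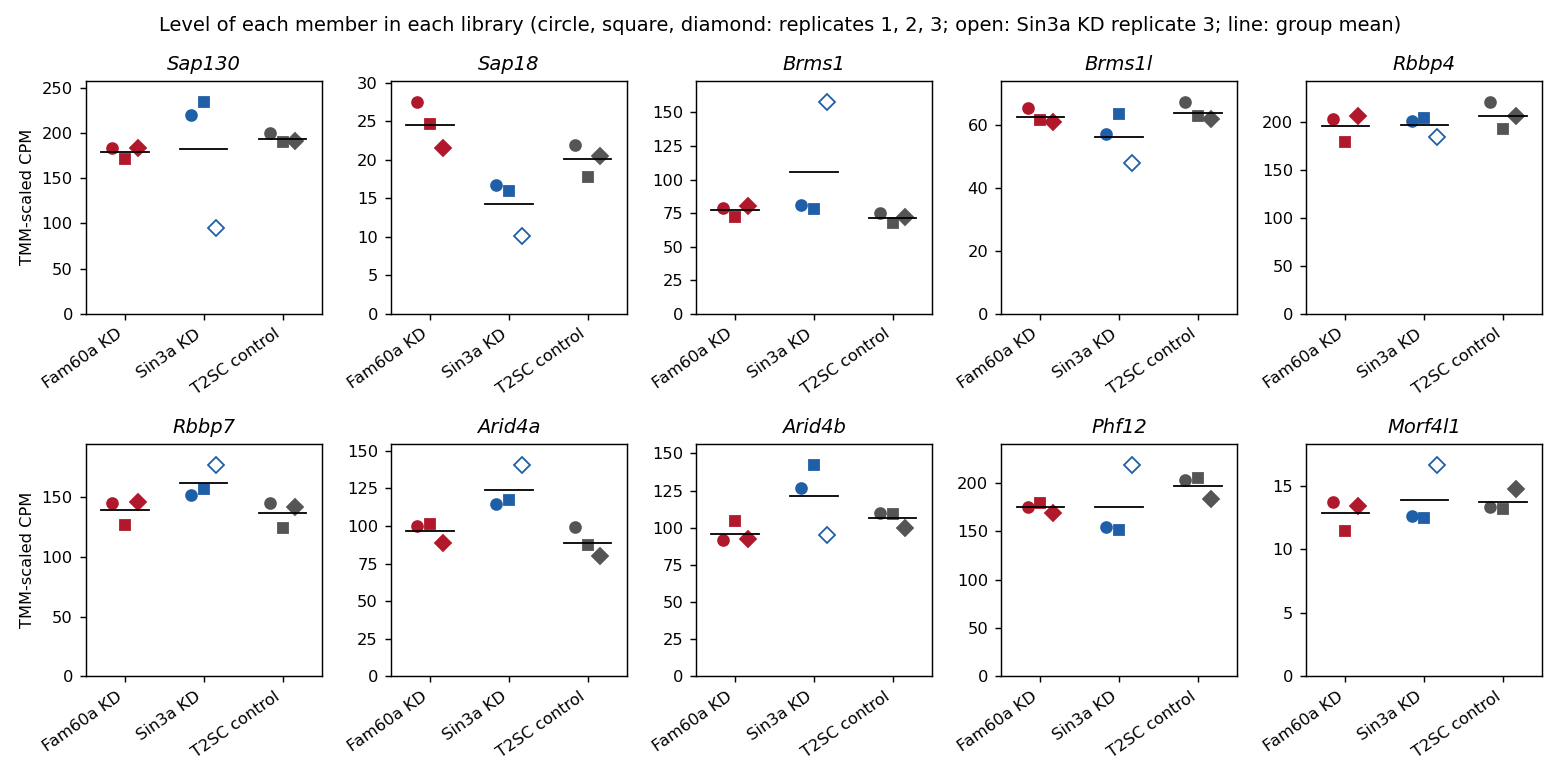
Level of each accessory subunit in each library, in TMM-scaled CPM on an axis from 0, with the Fam60a knockdown (red), the Sin3a knockdown (blue) and the T2SC control (grey) from left to right. Circles, squares and diamonds are replicates 1, 2 and 3, lines are group means, and the open diamond is the Sin3a knockdown replicate 3, which lies far from replicates 1 and 2 for Sap130, at 94.65 CPM, and Brms1, at 158 CPM.

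The SAP proteins were first found as polypeptides that purify with Sin3. Sap130, a large subunit specific to SIN3 whose gene is on the plus strand of chromosome 18, had 183, 171 and 183 CPM in the Fam60a knockdown, 219.7, 234 and 94.65 CPM in the Sin3a knockdown and 199.6, 190.0 and 192 CPM in the controls. The Fam60a knockdown libraries all lay below the controls, and those of the Sin3a knockdown lay on both sides, replicate 3 alone being low. Its log2 fold change was -0.11 ± 0.27 in the Fam60a knockdown (SE, adjusted p = 0.968) and -0.08 ± 0.27 in the Sin3a knockdown (adjusted p = 0.887). Without replicate 3 of the Sin3a knockdown its sign turned, and Sap130 rose by 0.23 ± 0.06 on the log2 scale over the controls (adjusted p = 0.0228). It was then also lower in the Fam60a knockdown than in the Sin3a knockdown, at a log2 difference of -0.33 ± 0.06 (adjusted p = 0.00875), against -0.04 ± 0.27 with all libraries (adjusted p = 0.952).

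Sap18, a small subunit with a ubiquitin-like fold, was the least covered after Morf4l1, with 25 to 192 reads a library. It had 27.5, 24.6 and 21.5 CPM in the Fam60a knockdown, 16.8, 16.0 and 10.2 CPM in the Sin3a knockdown and 22.0, 17.8 and 20.6 CPM in the controls. All Sin3a knockdown libraries lay below all controls, and the Fam60a knockdown overlapped the controls from above. For Sap18 the log2 fold change was 0.29 ± 0.23 in the Fam60a knockdown (adjusted p = 0.696) and -0.47 ± 0.24 in the Sin3a knockdown (adjusted p = 0.249). Set against each other, the knockdowns did not overlap, at 1.69 times the Sin3a knockdown level in the Fam60a knockdown with a 95% interval of 1.17 to 2.45, but the difference missed the threshold (log2 0.76 ± 0.24, adjusted p = 0.126). DESeq2 called the same difference at 0.72 (adjusted p = 0.0236), and without the Sin3a knockdown replicate 3 edgeR called it at 0.59 ± 0.17 (adjusted p = 0.0472). The fit with GC correction and the replicate block called it too, at 0.70 (adjusted p = 0.0384).

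Brms1, named for suppressing metastasis in breast cancer models, and its paralogue Brms1l bind the scaffold through coiled coils. Brms1 had 79.0, 72.1 and 80.5 CPM in the Fam60a knockdown, 80.65, 78.0 and 158 CPM in the Sin3a knockdown and 75.1, 67.95 and 72.0 CPM in the controls. Its mean in the Sin3a knockdown, 105.4 ± 45.2 CPM (SD, n = 3), was set by replicate 3, and replicates 1 and 2 averaged 79.3 CPM, against 71.7 ± 3.58 CPM in the controls. The log2 fold change in the Sin3a knockdown was 0.55 ± 0.25 (adjusted p = 0.212) and 0.15 ± 0.09 without replicate 3 (adjusted p = 0.231). It was called only with the replicate block, together either with GC correction, at 0.46 (adjusted p = 0.0376), or with replicate 3 left out, at 0.17 (adjusted p = 0.0494). In the Fam60a knockdown it was 0.11 ± 0.25 (adjusted p = 0.966).

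Brms1l had 65.4, 61.3 and 60.7 CPM in the Fam60a knockdown, 57.2, 63.3 and 47.9 CPM in the Sin3a knockdown and 67.1, 62.6 and 61.7 CPM in the controls. The groups overlapped throughout. For Brms1l the log2 fold change was -0.03 ± 0.14 in the Fam60a knockdown (adjusted p = 0.986) and -0.18 ± 0.14 in the Sin3a knockdown (adjusted p = 0.452), and the 95% intervals of the fold ran from 0.789 to 1.22 and from 0.71 to 1.1.

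The WD-repeat histone chaperones Rbbp4 and Rbbp7 bind histones H3 and H4 and are shared by many chromatin complexes. Rbbp4 had 204, 179 and 207 CPM in the Fam60a knockdown, 202, 205 and 184 CPM in the Sin3a knockdown and 221, 194 and 207 CPM in the controls. All 3 groups overlapped, and the intervals were among the narrowest of the 10, with a fold of 0.949 (0.805 to 1.12) in the Fam60a knockdown and 0.951 (0.807 to 1.12) with Sin3a knocked down. Rbbp7 had 145, 127 and 146 CPM in the Fam60a knockdown, 152, 157 and 177 CPM in the Sin3a knockdown and 145, 124 and 142 CPM in the controls. Every Sin3a knockdown library lay above every control and every Fam60a knockdown library. The difference over the controls missed the threshold, at a log2 fold change of 0.24 ± 0.12 (adjusted p = 0.235), and was called at 0.21 ± 0.06 (adjusted p = 0.0181) only with the replicate block and without replicate 3. In the Fam60a knockdown it was 0.02 ± 0.12 (adjusted p = 0.987).

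Arid4a, which binds the retinoblastoma protein, and its paralogue Arid4b carry an ARID DNA-binding domain and histone-reading domains. Arid4a had 100.15, 101 and 88.4 CPM in the Fam60a knockdown, 115, 117 and 141 CPM in the Sin3a knockdown and 99.4, 87.0 and 80.15 CPM in the controls. All Sin3a knockdown libraries lay above all libraries of the other groups, and the Fam60a knockdown overlapped the controls. Arid4a came nearest to a call with all 9 libraries, at 1.39 times the control level in the Sin3a knockdown (95% interval 1.13 to 1.72, log2 0.48 ± 0.14, adjusted p = 0.0556). It passed with DESeq2 (0.50, adjusted p = 0.00895), with limma-voom (0.38, adjusted p = 0.00576) and with edgeR without replicate 3 (0.39 ± 0.10, adjusted p = 0.0208), and its adjusted p ran from 0.00144 to 0.165 over all alternatives. In the Fam60a knockdown it was 0.12 ± 0.14 on the log2 scale (adjusted p = 0.854), and the difference between the knockdowns was -0.36 ± 0.14 (adjusted p = 0.198).

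Arid4b had 91.5, 104 and 92.2 CPM in the Fam60a knockdown, 127, 142 and 95.1 CPM in the Sin3a knockdown and 110.1, 109 and 99.5 CPM in the controls. Replicates 1 and 2 of the Sin3a knockdown were the highest of the 9 libraries, and replicate 3 lay below the controls. The log2 fold change over the controls was 0.20 ± 0.16 in the Sin3a knockdown (adjusted p = 0.461), and without replicate 3 Arid4b rose by 0.34 ± 0.09 (adjusted p = 0.0208). The Fam60a knockdown was at -0.15 ± 0.16 (adjusted p = 0.824). Between the knockdowns the difference was -0.34 ± 0.16 (adjusted p = 0.286), and -0.47 ± 0.09 without replicate 3 (adjusted p = 0.00899), when every Fam60a knockdown library lay below both remaining Sin3a knockdown libraries.

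Phf12, a PHD-finger protein, and Morf4l1, a chromodomain protein that binds methylated histones of transcribed genes, belong to a smaller form of SIN3 found on gene bodies. Phf12 had 176, 179.8 and 169 CPM in the Fam60a knockdown, 155, 151 and 219 CPM in the Sin3a knockdown and 203, 205 and 183 CPM in the controls. The Fam60a knockdown lay below the controls in every library, and so did the Sin3a knockdown apart from replicate 3, which was the highest of all 9. The log2 fold change was -0.17 ± 0.15 in the Fam60a knockdown (adjusted p = 0.725) and -0.18 ± 0.15 in the Sin3a knockdown (adjusted p = 0.484). Without replicate 3 Phf12 fell by 0.37 ± 0.07 on the log2 scale in the Sin3a knockdown (adjusted p = 0.00531), and it was at -0.16 ± 0.06 in the Fam60a knockdown (adjusted p = 0.0943), which passed only when the replicate block was added (adjusted p = 0.0116).

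Morf4l1 had 13.75, 11.4 and 13.4 CPM in the Fam60a knockdown, 12.65, 12.4 and 16.7 CPM in the Sin3a knockdown and 13.4, 13.2 and 14.75 CPM in the controls. The groups overlapped, at 41 to 99 reads a library. The log2 fold change was -0.10 ± 0.22 in the Fam60a knockdown (adjusted p = 0.963) and 0.01 ± 0.22 in the Sin3a knockdown (adjusted p = 0.993), with a 95% interval of the fold from 0.712 to 1.41 in the Sin3a knockdown, so changes within that range were not detectable with these libraries.

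**Figure D2:**
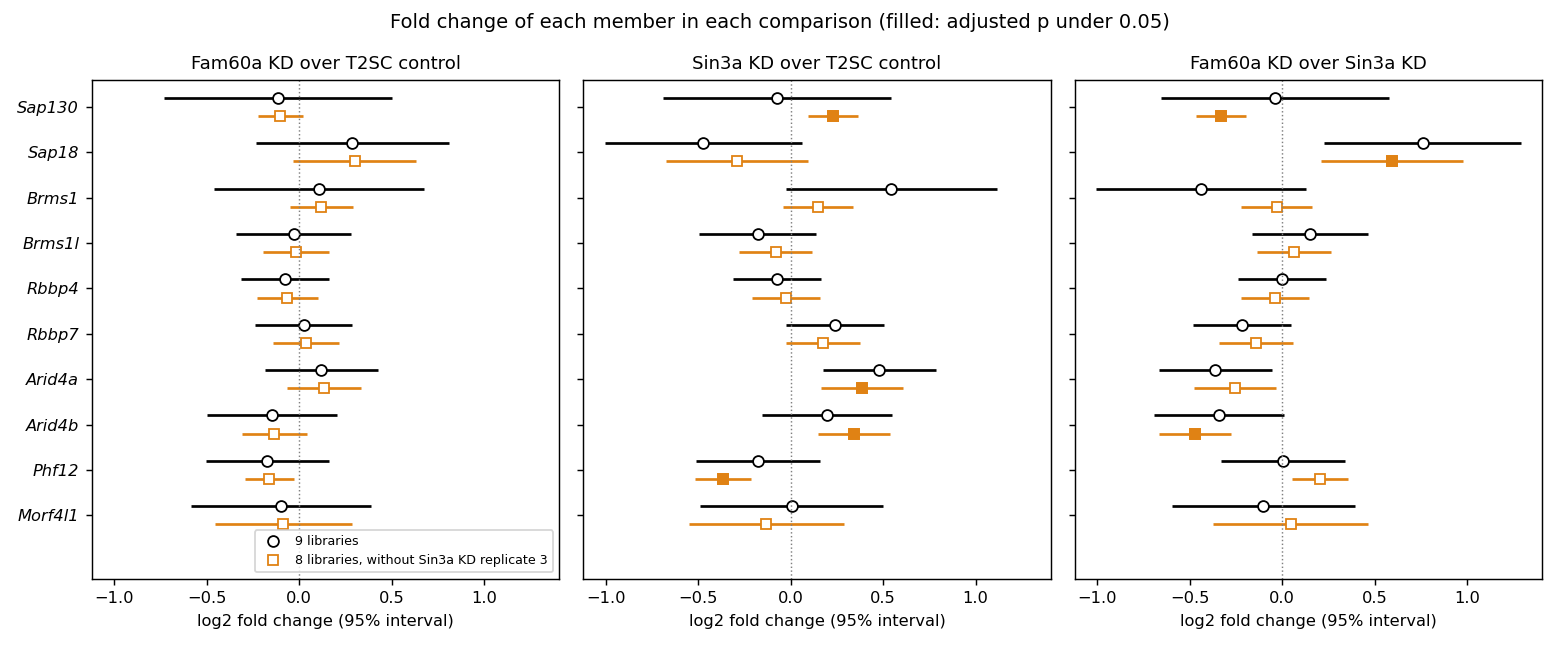
Log2 fold change of each accessory subunit with its 95% interval from edgeR, for the Fam60a knockdown over the control, the Sin3a knockdown over the control and the Fam60a knockdown over the Sin3a knockdown. Black circles use 9 libraries and orange squares leave out the Sin3a knockdown replicate 3, and filled symbols have an adjusted p under 0.05: 0 of the circles, and squares for 4 genes in the middle panel and 3 in the right one.

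Counted over the 10, edgeR with all 9 libraries called 0 in the Fam60a knockdown, where 2.92% of all genes were called, 0 in the Sin3a knockdown, where 10.2% were called, and 0 between the knockdowns, where 3.06% were called. At an unadjusted p under 0.05 the counts were 0, 1 and 2 of 10, beside 15.7%, 25.9% and 18.1% of all genes. DESeq2 called 0, 1 and 1 of 10, beside 8.16%, 17.3% and 9.21% of all genes, and limma-voom with sample weights called 0, 3 and 5, beside 20.4%, 34.6% and 26.9%. The median log2 fold change of the 10 was -0.05, -0.03 and -0.07 in the 3 comparisons, and that of all genes -0.02, -0.01 and 0.01. The median size of the change, regardless of sign, was 0.11, 0.19 and 0.18 for the 10 against 0.19, 0.33 and 0.28 for all genes. With GC correction these sizes were 0.102, 0.325 and 0.356 for the 10 against 0.194, 0.33 and 0.281 for all genes. The smaller size for the 10 was thus kept under GC correction only in the Fam60a knockdown. Groups did not overlap for 2 of 10 in the Fam60a knockdown, Sap130 and Phf12, both lower, beside 34.4% of all genes. They did not overlap for 4 of 10 in the Sin3a knockdown, with Brms1, Rbbp7 and Arid4a higher and Sap18 lower, beside 33.2% of all genes. Between the knockdowns they did not overlap for 3 of 10, with Sap18 higher and Rbbp7 and Arid4a lower in the Fam60a knockdown, beside 25.5%.

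With the replicate block and all 9 libraries, edgeR called 0 of 10 in each of the 3 comparisons, beside 6.13%, 15.0% and 4.65% of all genes. With the block and GC correction it called 0, 1 and 1 of 10, beside 11.7%, 23.0% and 10.8%.

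Without the Sin3a knockdown replicate 3, edgeR called 0 of 10 in the Fam60a knockdown, 4 in the Sin3a knockdown and 3 between the knockdowns, beside 16.9%, 24.5% and 14.7% of all genes tested. The share of called genes rose for the whole table when this library was left out, and nothing particular to the accessory subunits was read from these counts. Groups then did not overlap for 2 of 10 in the Fam60a knockdown, beside 34.4% of all genes, for 8 of 10 in the Sin3a knockdown, beside 56.0%, and for 6 of 10 between the knockdowns, beside 49.3%. Adding the replicate block to those 8 libraries, a setting chosen after seeing the data, gave 1, 6 and 5 of 10, beside 39.6%, 47.3% and 36.1% of all genes. Both comparisons with the controls share the same 3 control libraries, and their values are given side by side for that reason only.

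The replicate numbers paired the libraries, and differences were also taken within same-numbered libraries. For the Fam60a knockdown these lay between -0.27 and 0.46 in log2 CPM over all 10 genes and 3 pairs, both ends being the pairs of Arid4b and Sap18. They had the same sign in all 3 pairs for 7 of 10 genes, beside 67.1% of all genes. For the Sin3a knockdown the differences in pairs 1 and 2 lay between -0.44 and 0.43, whereas pair 3 ran from -1.01 for Sap130 to 1.13 for Brms1. They had the same sign in all pairs for 4 of 10 genes, beside 49.6% of all genes. Arid4a was higher in every Sin3a knockdown pair, by 0.21, 0.43 and 0.81, and Sap18 was lower in every one, at -0.38, -0.15 and -0.99.

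**Figure D3:**
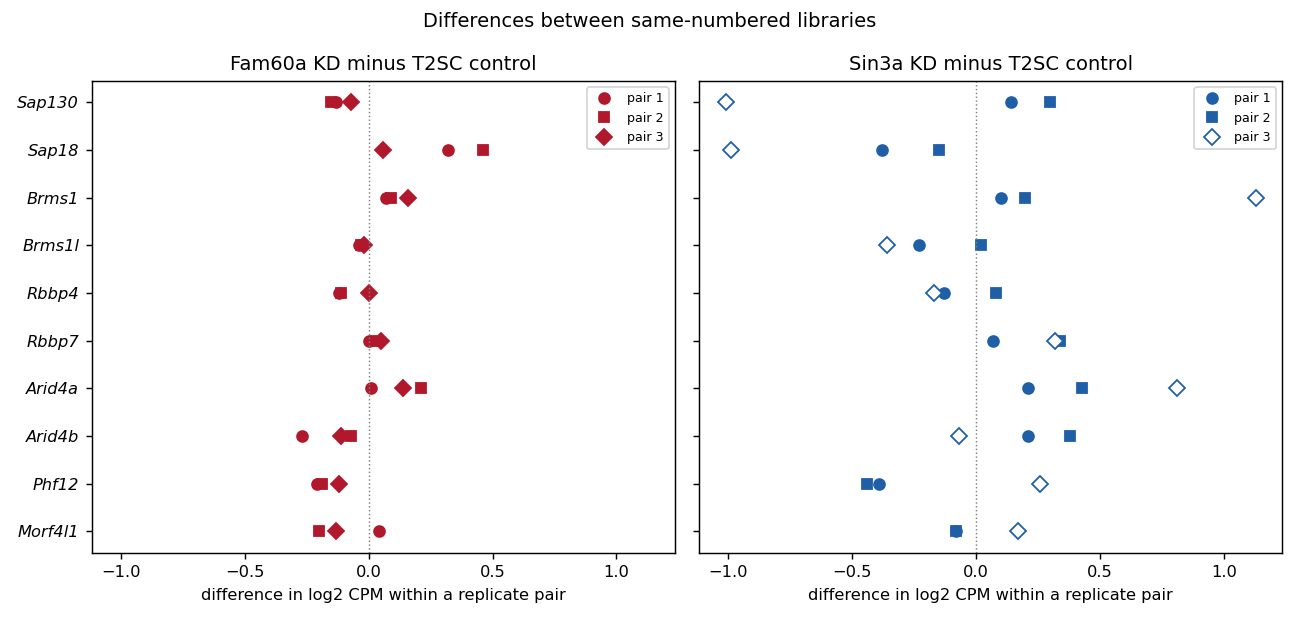
Difference in log2 CPM within each pair of same-numbered libraries, knockdown minus T2SC control, for the Fam60a knockdown (left) and the Sin3a knockdown (right). Symbols mark pairs 1, 2 and 3, and the open diamonds, which use the Sin3a knockdown replicate 3, lie outside the other pairs of both panels for several genes, among them Sap130 at -1.01, Sap18 at -0.99, Brms1 at 1.13, Arid4a at 0.81 and Phf12 at 0.26.

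The distance of replicate 3 from the other Sin3a knockdown libraries differed in sign from gene to gene. The difference from the mean of replicates 1 and 2 was -1.26 in log2 CPM for Sap130, -0.67 for Sap18, -0.50 for Arid4b, -0.33 for Brms1l and -0.14 for Rbbp4. It was 0.99 for Brms1, 0.52 for Phf12, 0.40 for Morf4l1, 0.28 for Arid4a and 0.20 for Rbbp7. The median distance, regardless of sign, was 0.449 for the 10 against 0.673 for all genes, while replicates 1 and 2 differed by a median of 0.0471 and 0.125. The 2 transcripts richest in GC, Brms1 with 57.3% and Phf12 with 54.4%, were both high in replicate 3, and the next, Sap130 with 51.2%, was the lowest of all. A correction for GC content brought 0 of 10 calls on its own in any comparison. It did change the values, and the median size of the change of the 10 in the Sin3a knockdown went from 0.188 to 0.325.

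**Figure D4:**
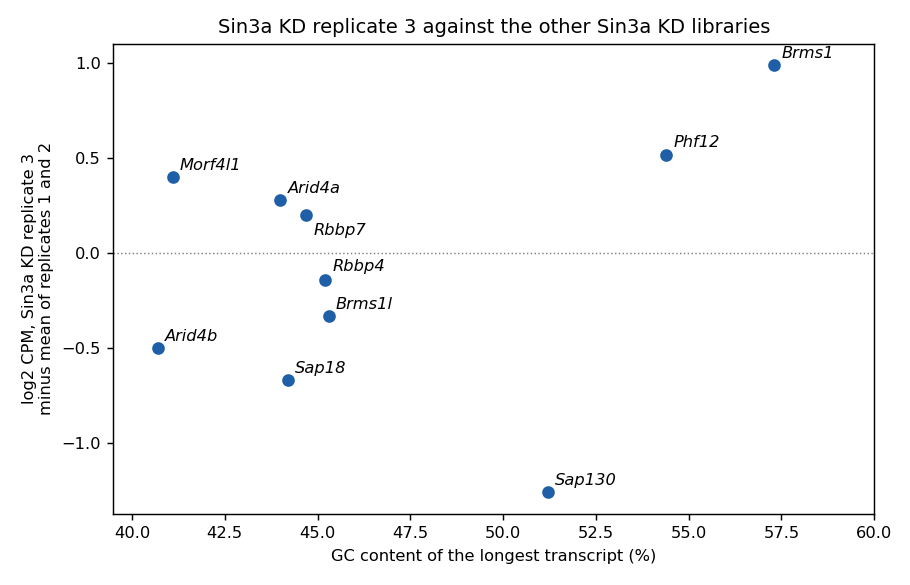
Log2 CPM of each accessory subunit in the Sin3a knockdown replicate 3 minus the mean of replicates 1 and 2, against the GC content of its longest transcript in percent. Points above 0 are higher in replicate 3, from 0.20 for Rbbp7 to 0.99 for Brms1, and points below 0 are lower, down to -1.26 for Sap130.

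Paralogues can replace each other in the complex, and their proportions were taken per length. The ratio of Rbbp4 to Rbbp7 was 0.716, 0.718 and 0.722 in the Fam60a knockdown, 0.674, 0.664 and 0.53 with Sin3a knocked down and 0.775, 0.794 and 0.744 in the controls. Both knockdowns lay below the controls in every library, by a small margin, and no test was made of ratios. Among single genes, 34.4% did not overlap the controls with Fam60a knocked down, and 33.2% with Sin3a knocked down. No such share was taken for ratios. The levels of Rbbp7 and Brms1 are uncertain, as stated above, and so are the ratios that use them. The ratio of Arid4a to Arid4b was 1.28, 1.13 and 1.12 in the Fam60a knockdown, 1.06, 0.966 and 1.73 with Sin3a knocked down and 1.06, 0.933 and 0.945 in the controls. Here the Fam60a knockdown lay above every control, while the Sin3a knockdown overlapped the controls apart from replicate 3. The ratio of Brms1 to Brms1l was 2.27, 2.21 and 2.49 in the Fam60a knockdown, 2.65, 2.32 and 6.18 with Sin3a knocked down and 2.1, 2.04 and 2.19 in the controls, where both knockdowns lay above every control and replicate 3 of the Sin3a knockdown was far from the rest.

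Of the core subunits and partners of SIN3, a list of 14 genes, those called with all 9 libraries were the 2 hairpin targets and Ing2. In the Fam60a knockdown 0 rose and 1 fell, Sinhcaf itself. In the Sin3a knockdown 1 rose and 1 fell, and the gene that fell was Sin3a. The riser was Ing2, the PHD-finger subunit that reads methylated histone tails, with 72.7, 65.4 and 148 CPM in the Sin3a knockdown and 43.8, 35.9 and 38.7 CPM in the controls (log2 fold change 1.26 ± 0.29, adjusted p = 0.0278). Its rise was 0.81 ± 0.13 without the Sin3a knockdown replicate 3 (adjusted p = 0.00263), and the call was lost without the Fam60a knockdown replicate 1 (adjusted p = 0.0506) and without each control library in turn (adjusted p = 0.0846 to 0.115). Between the knockdowns Sin3a was higher (log2 0.78 ± 0.11, adjusted p = 0.012) and Sinhcaf lower (-1.43 ± 0.23, adjusted p = 0.0183) in the Fam60a knockdown. Both calls missed the threshold without the Fam60a knockdown replicates 1 or 2 or the Sin3a knockdown replicate 1, and that on Sinhcaf also without the Sin3a knockdown replicate 2 (adjusted p up to 0.0892), although over all fits with 1 library left out the differences stayed at 0.71 to 0.82 for Sin3a and -1.54 to -1.28 for Sinhcaf. Without the Sin3a knockdown replicate 3 the counts of the 14 were 0 higher and 3 lower in the Fam60a knockdown, 2 higher and 1 lower in the Sin3a knockdown, and 1 higher and 6 lower between the knockdowns, beside 16.9%, 24.5% and 14.7% of all genes. Those added were Sin3a and Kdm5b, a histone demethylase, in the Fam60a knockdown, Sap30 in the Sin3a knockdown, and Ing2, Kdm5b, Sap30, Ing1 and Tet1 between the knockdowns.

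The other complexes that use these subunits were read against the same shares of all genes, 2.92% called in the Fam60a knockdown, 10.2% in the Sin3a knockdown and 3.06% between the knockdowns. Of NuRD, 0 of 10 genes passed the test in the Fam60a knockdown. With Sin3a knocked down 1 fell, Mta1, with 112, 113 and 69.1 CPM against 162, 162 and 163 CPM in the controls (log2 fold change -0.72 ± 0.17, adjusted p = 0.031). Of the 16 NuA4/TIP60 genes, 0 were called in the Fam60a knockdown and 2 fell in the Sin3a knockdown. These were Epc1, a scaffold of the acetyltransferase module, with 47.3, 48.7 and 32.5 CPM against 77.9, 76.3 and 79.7 CPM in the controls (-0.85 ± 0.16, adjusted p = 0.0137), and Meaf6, another subunit of that module, with 37.4, 29.7 and 16.2 CPM against 75.1, 76.0 and 57.1 CPM (-1.30 ± 0.28, adjusted p = 0.0205). Epc1 was also higher in the Fam60a knockdown than in the Sin3a knockdown, by 0.74 ± 0.16 (adjusted p = 0.0491). Of 9 PRC2 genes, 10 genes of CAF-1, NURF and other partners of Rbbp4 and Rbbp7, and 3 ASAP genes, edgeR called 0 in every comparison with all 9 libraries. Of 10 close relatives of the accessory subunits, 1 fell in the Sin3a knockdown, the PHD-finger gene Phf21a (-0.60 ± 0.15, adjusted p = 0.0333), and 0 were called in the other comparisons. Many of these calls missed the threshold when a library was left out, while the log2 fold changes kept their sign and ran over -0.82 to -0.53 for Mta1, -0.65 to -0.47 for Phf21a, -0.93 to -0.70 for Epc1 and -1.56 to -1.04 for Meaf6 in the Sin3a knockdown, and 0.59 to 0.82 for Epc1 between the knockdowns. Leaving out 1 library at a time ended the call on Mta1 for 7 of 9 libraries, all but the Sin3a knockdown replicates 2 and 3, with an adjusted p up to 0.0988. It ended that on Phf21a for 8 of 9, all but the Sin3a knockdown replicate 3, with an adjusted p up to 0.135. The fall of Epc1 was lost without control replicates 1 or 2, its difference between the knockdowns was lost without any library but the Sin3a knockdown replicate 3, and the fall of Meaf6 was lost without control replicates 1 or 2 or the Sin3a knockdown replicate 2. Over all alternatives the adjusted p reached 0.102 for Mta1, 0.135 for Phf21a, 0.0553 for Epc1 and 0.0783 for Meaf6 in the Sin3a knockdown, and 0.174 for Epc1 between the knockdowns.

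Without the Sin3a knockdown replicate 3 most of these lists held more calls, as did the whole table, at 16.9% in the Fam60a knockdown, 24.5% in the Sin3a knockdown and 14.7% between the knockdowns. In that order, NuRD had 1, 2 and 0 of 10 genes called, NuA4/TIP60 had 1, 3 and 4 of 16, PRC2 had 0, 1 and 2 of 9, and the list of CAF-1, NURF and other partners had 1, 1 and 1 of 10. ASAP had 0, 1 and 0 of 3, and the close relatives had 1, 3 and 1 of 10. The accessory subunits had 0, 4 and 3 of 10 in the same fits. No list was tested against another.

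With no accessory subunit called, patterns like theirs were looked up for the 2 with the largest fold changes against the controls, Brms1 and Arid4a. Likeness was the root mean square difference of centred log2 CPM over libraries, among 13440 protein-coding genes. Over all 9 libraries the genes nearest to Brms1 were A430005L14Rik, Gtf2f1 and Pafah1b3, at 0.0333 to 0.0448, and those nearest to Arid4a were Fbxw7, Foxo3 and Ccdc34, at 0.0502 to 0.0641. Without the Sin3a knockdown replicate 3 the 3 nearest to Brms1 were Cdc123, Chmp1a and Coa3, at 0.0204 to 0.0232, and those nearest to Arid4a were Relch, Fbxw7 and Arl13b, at 0.0413 to 0.0493. Only Fbxw7 was in both lists for Arid4a, and 0 genes were in both lists for Brms1.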

How the data were processed

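The authors deposited 1 table per library with raw counts, that is whole reads for each Ensembl gene, not normalized. Per the submitters' processing notes, STAR 2.4.0j, Picard and featureCounts of Subread were used, on TruSeq stranded single-end libraries, and per the file headers duplicate reads had been removed. The genome build is not given in the sources used here. Gene IDs were looked up in GENCODE M21 (GRCm38), which covered 32937 of 37990 genes.

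The tests were run in edgeR 4.0.16 (R 4.3.3): filterByExpr, TMM scaling, 1 model of 3 groups over 9 libraries and robust quasi-likelihood F-tests, adjusted by Benjamini-Hochberg over 14465 genes (14735 without the Sin3a knockdown replicate 3). Each SE is the size of the log2 fold change divided by the square root of F. The common biological coefficient of variation was 0.25. A prior count of 2 entered log CPM. Where the labels do not show separate cultures, p-values measure only the spread between these libraries.

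Alternatives were size factors, upper-quartile scaling, no filter, DESeq2 1.42.0, limma 3.58.1 voom with sample weights (0.0724 for the Sin3a knockdown replicate 3), GC correction, a replicate block, 6 libraries per fit and each library left out. Same-numbered libraries deviated together across genes, where r was 0.178 to 0.622 for all 9 such pairs and -0.448 to 0.113 for libraries of unlike number, so the numbers were taken to pair the samples; the titles give the numbers. The genes named were the 10, both targets, up to 3 called genes per related list, and the 3 nearest in pattern to 2 of the 10, with Phf21a, single marker genes and genes called without the Sin3a knockdown replicate 3 named after their values were seen. The genes, the lists and the tests were chosen with earlier results of these data known. Genes were matched to RefSeq promoters by symbol, and promoters of chromosome 18 were left out before the matching and the comparison.

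Strand-specific counting is not stated in the sources used here beyond the kit, and opposite-strand exons overlap up to 15.4% of a gene's exons (Morf4l1 with Gm26882), with 10.8% for Phf12, 9.10% for Rbbp4 and 5.98% for Rbbp7. Reads of the 10 reached at most 0.343 per exon base in a library (Rbbp7), and what duplicate removal took from these counts was not tested.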

Additional observations from a re-analysis of the deposited data

Results flagged for a closer look

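Sap18 differed in direction between the knockdowns relative to the mean of the controls. All 3 Fam60a knockdown libraries lay above that mean, at 21.5 to 27.5 CPM, and all 3 Sin3a knockdown libraries lay below it, at 10.2 to 16.8 CPM, with the control mean at 20.1 CPM. The difference between the knockdowns was 0.76 on the log2 scale, and edgeR's test of it missed the threshold (adjusted p = 0.126, and 0.00453 to 0.352 over the alternatives). Sap18 had 25 reads in the lowest library, the Sin3a knockdown replicate 3, and shares 15.6% of its 50-base words with other genes, and the part of either in the difference was not tested.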

How the results depend on the processing

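Of 760 fold changes recomputed under 19 alternatives for 40 results, 651 kept direction and side of the threshold, 62 lost the call, 29 gained one and 18 changed sign. The cause was not tested. The 40 results include the hairpin targets and the named genes of related lists. The lost calls were all on those genes, as no accessory subunit was called with all 9 libraries. Members called in the Sin3a knockdown numbered 1 with DESeq2, 1 with GC correction and the replicate block, 3 with limma-voom and 0 to 4 with 1 library left out. Between the knockdowns these counts were 1, 1, 5 and 0 to 3. The replicate block without the Sin3a knockdown library 3, added after seeing the data, gave 1 (Fam60a knockdown), 6 (Sin3a knockdown) and 5 (between them). The replicate block alone changed no member call. All genes called in the Fam60a knockdown numbered 887 with the replicate block, 728 with GC correction, 1691 with both, 1181 with DESeq2, 2949 with limma-voom, 1827 with 6 libraries, 5842 with the block without library 3 and 11 to 2495 with 1 library left out, against 423. In the Sin3a knockdown they numbered 3331 with GC correction and block, 2507 with DESeq2, 5003 with limma-voom, 739 with 6 libraries, 6975 with the block without library 3 and 521 to 3606 with 1 left out, against 1475, and 2164 with the block. Between the knockdowns they numbered 672, 821, 1565, 1332, 3890, 0, 5321 and 48 to 2166 under the settings listed for the Fam60a knockdown, against 443. For that 0, with edgeR on 6 libraries, 1760 genes had an unadjusted p under 0.05. Signs turned for small changes. In the Fam60a knockdown Brms1l was 0.01 without the filter and -0.06 to 0.03 with 1 library left out, and Rbbp7 was -0.02 to 0.09. In the Sin3a knockdown Sap130 was 0.20 with limma-voom, 0.24 with the block without library 3 and -0.25 to 0.23 with 1 left out. Rbbp4 was 0.01 with GC correction and -0.09 to 0.01 with 1 left out. Morf4l1 was -0.04 with upper-quartile scaling, -0.12 with limma-voom, -0.09 with the block without library 3 and -0.13 to 0.13 with 1 left out. Between the knockdowns Sap130 was 0.02 with the replicate block and -0.33 to 0.16 with 1 left out, and Morf4l1 was 0.06 with limma-voom and -0.20 to 0.04. Scaling moved the median of all genes by less than 0.1. Morf4l1 and Sap18 had the fewest reads, 41 and 25 in their lowest libraries.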
